A study of Mus musculus with 20 samples.

Results

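36 genes of the brown adipocyte lipid and thermogenic program were followed through the cells of mouse interscapular brown adipose tissue (iBAT). The members were chosen by symbol, and each of the 36 was found in a single row among the 31053 genes of the matrices. They were followed in the stromal subtypes, in cells that carry Adipoq, in endothelial cells and in immune cells, to describe where early differentiation and cell-free adipocyte RNA lie in these libraries. The 20 libraries came from 10 pools of 3 to 4 mice aged 8-14 weeks. Each pool was digested with collagenase, freed of mature adipocytes and separated with magnetic beads into cells that carry immune lineage markers (Lin+) and cells that lack them (Lin-), with 1 library of each. C57 males (C57BL/6J) were kept at room temperature (RT, 24 °C), held singly at 6 °C for 4 days without nesting material (COLD), or given CL316,243 (CL) at 0.75 nmol per hour for 4 days from an osmotic pump, an agonist of the β3-adrenergic receptor, and each treatment had 2 pools.

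A further line of females was kept at RT or in the cold, with 1 pool in each group. All mice of this line were Adrb1 fl/fl and had received tamoxifen. The WT mice were Pdgfra-CreER -/- and the KO mice Pdgfra-CreER +/-, with the tamoxifen-dependent allele that the study's methods name Pdgfra-CreERT2, so that Adrb1, the β1-adrenergic receptor, is removed only from cells that use the Pdgfra promoter. The RT libraries of this line were made with version 3 of the Chromium kit and its cold libraries with version 2, and within it the effects of kit and temperature cannot be told apart.

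Brown adipocytes burn fatty acids for heat. UCP1 lets protons back across the inner mitochondrial membrane without ATP synthesis, DIO2 makes active thyroid hormone inside the cell, and noradrenaline drives both through β-adrenergic receptors. The fuel sits in lipid droplets coated by perilipins and CIDE proteins, is released by the lipases PNPLA2 and LIPE, and is replaced by uptake, re-esterification and de novo lipogenesis. A precursor that becomes an adipocyte turns on such genes under PPARγ and C/EBPα. The same transcripts are also abundant in mature adipocytes, which break during digestion and release RNA into the cell suspension, and droplet libraries then carry that RNA in cells that do not make it.

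Filtering left 66339 Lin- and 59935 Lin+ cells, 2424 to 12894 per library, with 7.86e+06 to 4.20e+07 corrected counts per library and a median of 1204 to 4358 UMIs per cell. Several libraries stand apart. In the Lin- library of RT replicate 2 72.01% of barcodes were over the limit on mitochondrial reads. The Lin+ and Lin- libraries of CL replicate 2 shared 1098 barcodes, 17.1% of the smaller library, against at most 193 (2.04%) in any other of the 190 pairs of libraries. A cluster of very low depth, left unnamed, held 3325 cells of CL replicate 1 and at most 161 of any other library. Stromal cells were named from markers that hold no member: ASC1-like, ASC2-like and ASC3-like adipose stromal cells, cycling stromal cells and differentiating adipocyte-like cells, together called the stromal lineage. VEC-like denotes vascular endothelial and mural-like the cells around vessels. The ASC1-like cells of RT lay mostly in clusters 0 and 16, those of COLD in clusters 0 and 1, those of WT COLD in cluster 7, and those of WT RT and KO RT in clusters 25 and 28. Levels are given as CPM, counts scaled to the same total, over all corrected counts of a class in a library. They come from tags of the 3′ end and are compared within a gene.

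The promoters of Adipoq, Ucp1, Plin1 and Fasn are shown first, because Adipoq, Ucp1 and Plin1 rose in ASC1-like cells under both treatments and the change of Fasn differed between ASC1-like and VEC-like (endothelial) cells. RefSeq promoters of GRCm38.p6, the patched form of the files' build mm10, were found for 27 of the 36 members. Each window runs from 250 bases before the transcription start to 50 after it. The windows are chr16:23146286-23146585 on the plus strand for Adipoq, chr8:83290098-83290397 on the plus strand for Ucp1, chr7:79732727-79733026 on the minus strand for Plin1 and chr11:120824498-120824797 on the minus strand for Fasn. Capitals mark CCAAT or its reverse complement in Adipoq and Fasn, AGGTCA in Ucp1 and the C/EBP core TTGCNNAA in Plin1.
Adipoq: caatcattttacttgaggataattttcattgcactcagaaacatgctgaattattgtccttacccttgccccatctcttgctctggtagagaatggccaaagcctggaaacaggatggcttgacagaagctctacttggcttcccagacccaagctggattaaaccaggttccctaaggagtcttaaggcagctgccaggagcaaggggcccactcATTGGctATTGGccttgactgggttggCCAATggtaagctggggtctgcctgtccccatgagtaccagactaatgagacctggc
Ucp1: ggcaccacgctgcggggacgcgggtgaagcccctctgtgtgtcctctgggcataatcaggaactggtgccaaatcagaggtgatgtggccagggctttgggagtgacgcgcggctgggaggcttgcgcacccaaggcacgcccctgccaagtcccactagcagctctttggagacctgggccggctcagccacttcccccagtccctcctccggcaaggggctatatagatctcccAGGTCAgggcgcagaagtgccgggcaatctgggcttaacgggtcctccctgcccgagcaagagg
Plin1: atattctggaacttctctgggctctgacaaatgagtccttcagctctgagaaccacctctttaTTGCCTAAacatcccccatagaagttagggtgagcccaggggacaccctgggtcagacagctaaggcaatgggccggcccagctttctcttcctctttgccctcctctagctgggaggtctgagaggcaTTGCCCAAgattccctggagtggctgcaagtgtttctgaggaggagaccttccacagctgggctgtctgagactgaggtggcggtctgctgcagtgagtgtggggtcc
Fasn: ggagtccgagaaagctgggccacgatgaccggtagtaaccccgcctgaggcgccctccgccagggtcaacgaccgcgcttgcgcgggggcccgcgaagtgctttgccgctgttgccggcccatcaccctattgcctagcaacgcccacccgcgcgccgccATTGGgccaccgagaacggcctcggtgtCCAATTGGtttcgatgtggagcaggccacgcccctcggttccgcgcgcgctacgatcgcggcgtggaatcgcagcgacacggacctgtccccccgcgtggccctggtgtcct

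The motifs were searched on both strands. CCAAT was found in 37.4% of all 32851 promoters and in 12 of the 27 members, among them Adipoq with 3 matches (34, 27 and 7 bases before the start) and Fasn with 3 (90, 62 and 59 bases before it, the last 2 of which overlap). The C/EBP core was found in 10.8% of all promoters and in 3 members, Plin1 (187 and 58 bases before the start), Cidec and Dio2. AGGTCA, the core of nuclear receptor sites, was found in 16.3% of all promoters and in 6 members, Ucp1 (14 bases before the start), Plin5, Acacb, Elovl6, Acly and Adig. A match is only a match of letters.

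The named class with the highest level was read for each member, and the unnamed clusters were left out. Averaged over the C57 libraries of COLD, 27 of the 36 members were highest in differentiating adipocyte-like cells, 5 in VEC-like, 3 in mural-like and 1 in ASC2-like cells. In CL, 33 were highest in differentiating adipocyte-like cells. That class was named from other adipocyte genes, so high levels of the members in it are not a separate result. The unnamed cluster of low depth had a higher mean than the leading class for 4 members in COLD (Acacb, Cidea, Fabp3 and Cox8b), for 4 in CL (Cidea, Cox8b, Elovl3 and Fabp3) and for 11 at RT, Ucp1 and Adipoq among them. At RT, where differentiating cells numbered 2 and 13 and were not ranked, so that the RT order cannot be set against the others, 17 members were highest in VEC-like cells, 7 in ASC1-like, 7 in mural-like, 4 in neutrophil-like and 1 in ASC2-like cells. The 7 that were highest in ASC1-like cells at RT were Acaca, Fasn, Scd1, Elovl6, Me1, Acsl3 and Pank1, of which the first 5 serve de novo lipogenesis, while Ucp1, Adipoq, Car3 and Cidea were among the 17 of VEC-like cells. The 13 unranked differentiating cells of RT replicate 2 held Ucp1 at 204 CPM, Adipoq at 6829 and Car3 at 37101 CPM. Differentiating adipocyte-like cells numbered 1026 and 224 in COLD and 818 and 58 in CL, and cycling stromal cells 881 and 380 in COLD, 186 and 33 in CL, and 7 and 3 at RT.

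**Figure D1:**
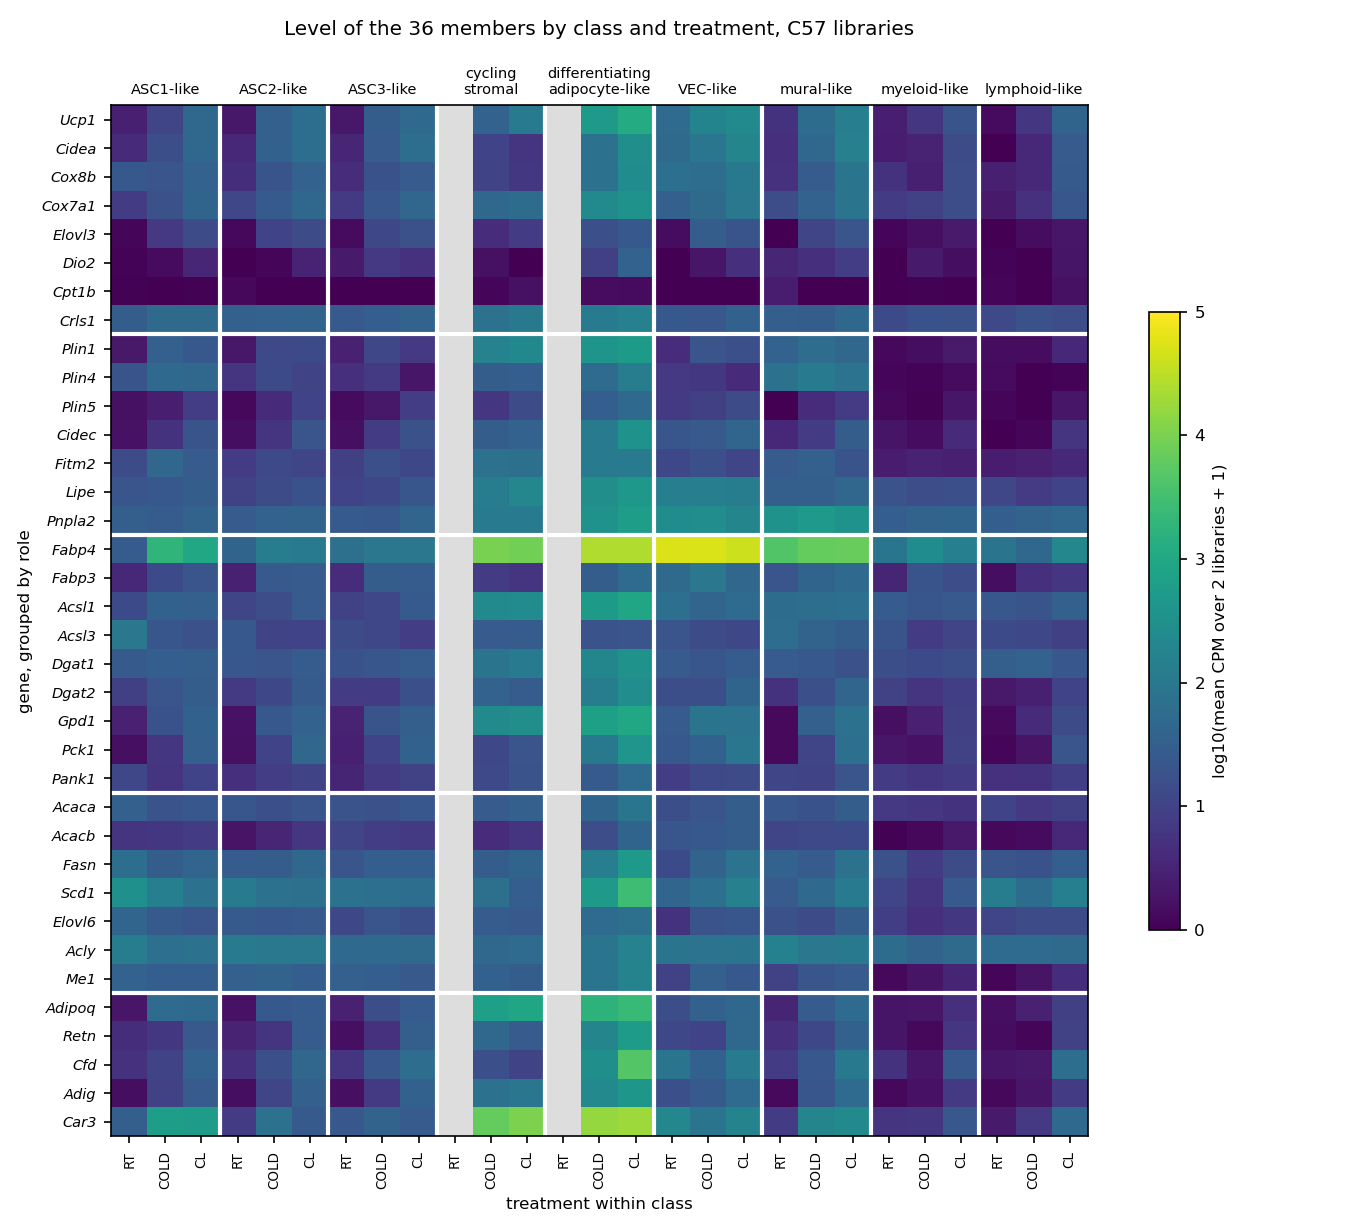
Heat map of the mean level of each of the 36 genes (rows, grouped by role) in each class and treatment of the C57 mice (columns), coloured by log10 of the mean CPM of 2 libraries plus 1; grey columns had under 20 cells in a library. The differentiating adipocyte-like columns are brightest for most rows, and Fabp4 is brightest in VEC-like cells.

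Of all Ucp1 counts in a Lin- library, VEC-like cells held 75.4% and 67.4% at RT, 8.42% and 11.6% in COLD and 13.1% and 4.57% in CL. Differentiating adipocyte-like cells held 73.96% and 60.7% of Ucp1 in COLD and 46.3% and 40.4% in CL. ASC1-like cells held 3.56% and 7.45% in COLD and 3.26% and 16.9% in CL. In CL replicate 1 the unnamed cluster of low depth held 26.8% of it. Of Adipoq, the adiponectin gene, 62.4% and 63.6% lay in differentiating and 31.8% and 20.2% in cycling stromal cells of COLD.

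ASC1-like cells were compared first. They held 7 of 7 general stromal markers in each C57 library. In COLD 34 members could be tested, 13 rose, 3 fell and 18 did not pass the threshold of 0.05 on the adjusted p of edgeR's quasi-likelihood test. Over all 12819 genes tested there, 14.2% passed, 7.35% upward and 6.86% downward. In CL 15 members rose, 2 fell and 17 did not pass, against 2.09% of all genes, 1.24% upward and 0.85% downward. The median log2 fold change of the tested members was 1.36 in COLD and 1.81 in CL, beside -0.0047 and -0.00082 over all genes tested. A raised median was not particular to these cells. It was 1.43 and 1.96 in ASC2-like, 0.66 and 0.57 in ASC3-like and 0.54 and 1.49 in VEC-like cells. In the immune fraction it was -0.23 and 1.15 in myeloid-like and 0.027 and 0.49 in lymphoid-like cells. Dio2 and Cpt1b had too few counts to be tested. Both treatments are set against the same RT libraries, and the RT levels of several members rest on few counts, which are given beside their folds.

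Among the 8 thermogenic and mitochondrial genes, 3 rose in COLD and 4 in CL. Changes are given as log2 fold changes ± SE, in COLD first and then in CL. Ucp1, the uncoupling protein, stood at 0.573 and 3.004 CPM at RT, 11.2 and 9.23 in COLD and 68.9 and 23.6 in CL. Every treated library was above both RT libraries, and both CL libraries were above both COLD libraries. The log2 fold change was 3.11 ± 0.63 (adjusted p = 0.0142) in COLD and 5.32 ± 0.58 (adjusted p = 0.00494) in CL, from 11.9 counts over both RT libraries. Cox7a1, a muscle and heart type subunit of cytochrome c oxidase, was at 7.16 and 5.35 CPM at RT, 17.1 and 16.04 in COLD and 52.1 and 26.98 in CL, with no overlap between RT and treated libraries, and rose by 1.32 ± 0.32 (adjusted p = 0.0276) and 2.64 ± 0.32 (adjusted p = 0.00600). Crls1, which makes cardiolipin for the inner mitochondrial membrane, was at 19.8 and 38.4 CPM at RT, 52.4 and 52.5 in COLD and 63.1 and 41.1 in CL, again without overlap. It rose by 1.07 ± 0.18 (adjusted p = 0.00726) and 1.14 ± 0.19 (adjusted p = 0.0199). Cidea, a lipid droplet protein that marks brown adipocytes, was at 1.06 and 5.05 CPM at RT, 22.3 and 7.89 in COLD and 76.9 and 18.99 in CL. Its treated libraries were all above RT, and it rose in CL by 4.53 ± 0.82 (adjusted p = 0.0308), while the value in COLD was 2.83 ± 0.85 (adjusted p = 0.0579). Dio2 was near 0 outside CL replicate 1, at 0.237 and 0 CPM at RT, 0.685 and 0.130 in COLD and 4.73 and 0.133 in CL. Cox8b and Elovl3 did not pass in either treatment.

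Of the 7 genes of the lipid droplet and lipolysis, the same 3 rose in both treatments. Plin1, the perilipin of adipocyte droplets, stood at 0.7097 and 1.61 CPM at RT, 34.5 and 32.1 in COLD and 28.5 and 16.99 in CL. The COLD and CL libraries lay above both RT libraries, and the log2 fold change was 5.10 ± 0.31 (adjusted p = 0.000159) in COLD and 4.62 ± 0.32 (adjusted p = 0.000762) in CL, from 9.78 RT counts. Plin4, another droplet coat protein, was at 12.04 and 26.4 CPM at RT, 44.8 and 54.4 in COLD and 45.7 and 45.9 in CL, all treated libraries being above RT, and rose by 1.63 ± 0.22 (adjusted p = 0.00240) and 1.62 ± 0.22 (adjusted p = 0.00926). In the Adrb1 line Plin4 was at 28.6 CPM in WT RT and 26.6 in WT COLD, and at 38.7 in KO RT and 39.2 in KO COLD. With the 8 libraries of both lines in 1 fit it no longer passed in COLD, while the other 15 members called there did. Fitm2, which partitions triglyceride into droplets at the endoplasmic reticulum, was at 10.4 and 14.9 CPM at RT, 44.1 and 43.7 in COLD and 28.9 and 22.6 in CL. It rose by 1.93 ± 0.16 (adjusted p = 0.000390) in COLD and by 1.26 ± 0.17 (adjusted p = 0.00846) in CL. The lipases Lipe and Pnpla2, with Plin5 and Cidec, did not pass in either.

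Fatty acid handling and triglyceride synthesis counted 9 genes, of which 4 rose and 1 fell in each treatment. Fabp4, a fatty acid binding protein of adipocytes and capillary endothelium, was at 52.1 and 4.01 CPM at RT, 1577 and 2240.2 in COLD and 377 and 1616 in CL. All treated libraries were above both RT libraries, which themselves differed widely, and the log2 fold change of 5.90 ± 1.38 (adjusted p = 0.0244) passed in COLD, whereas that of 5.15 ± 1.33 (adjusted p = 0.1002) in CL did not. Gpd1, which makes the glycerol backbone, was at 1.29 and 2.36 CPM at RT, 22.3 and 12.3 in COLD and 55.5 and 14 in CL and rose by 3.39 ± 0.70 (adjusted p = 0.0146) and 4.41 ± 0.69 (adjusted p = 0.0164), from 16.5 RT counts. Dgat2, an enzyme of the last step of triglyceride synthesis, was at 6.603 and 8.75 CPM at RT, 19.2 and 19.9 in COLD and 41.9 and 14.8 in CL and rose by 1.45 ± 0.38 (adjusted p = 0.0351) and 1.99 ± 0.39 (adjusted p = 0.0391). Acsl1, the main acyl-CoA synthetase of fat cells, was at 9.94 and 14.8 CPM at RT, 36.5 and 33.2 in COLD and 44.5 and 21.8 in CL. It rose by 1.64 ± 0.25 (adjusted p = 0.00433) and 1.61 ± 0.26 (adjusted p = 0.0175), and none of these genes overlapped between RT and treated libraries.

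Its relative Acsl3, which serves droplet formation in many cell types, moved the other way, from 118 and 71.3 CPM in RT to 26.9 and 14.6 in COLD and 16.7 and 15.6 in CL. All treated libraries were below both RT libraries. The log2 fold change was -2.21 ± 0.41 (adjusted p = 0.0103) in COLD and -2.45 ± 0.44 (adjusted p = 0.0290) in CL. Pck1, which feeds glycerol synthesis from pyruvate, was at 0.474 and 0.778 CPM at RT, 7.61 and 2.89 in COLD and 59.1 and 6.92 in CL, with the CL libraries far apart. It rose in CL by 5.78 ± 1.18 (adjusted p = 0.0440), from 5.83 RT counts, and the value in COLD was 3.12 ± 1.35 (adjusted p = 0.156). Fabp3, Dgat1 and Pank1 did not pass.

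No gene of de novo lipogenesis rose. Of the 7, Acaca and Acly fell in COLD and Scd1 fell in CL. Acaca, acetyl-CoA carboxylase, was at 29.7 and 37.8 CPM at RT, 19.7 and 16.3 in COLD and 27.1 and 16.6 in CL, with every treated library under both RT libraries, and the log2 fold change in COLD was -0.80 ± 0.19 (adjusted p = 0.0278). Acly, which supplies cytosolic acetyl-CoA, was at 123 and 135 CPM at RT, 73.9 and 59.6 in COLD and 90.8 and 63.4 in CL and changed by -0.85 ± 0.21 (adjusted p = 0.0299) in COLD. Scd1, the stearoyl-CoA desaturase, was at 344 and 288 CPM at RT, 159.6 and 129 in COLD and 69.7 and 75.7 in CL. The RT libraries were highest and the CL libraries lowest, with -1.94 ± 0.33 (adjusted p = 0.0231) in CL and -1.07 ± 0.32 (adjusted p = 0.0558) in COLD, the latter not past the threshold. The fatty acid synthase Fasn and the elongase Elovl6 did not pass in either treatment, nor did Acacb and Me1.

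Of the 5 secreted and other adipocyte genes, 3 rose in COLD and 4 in CL. Adipoq was at 0.117 and 1.9 CPM at RT, 59.8 and 48.5 in COLD and 63.2 and 39.1 in CL. It was barely present at RT, with 5.45 counts in 3264 cells, and all treated libraries were above both RT libraries. The log2 fold change was 6.76 ± 0.45 (adjusted p = 0.000219) in COLD and 6.75 ± 0.46 (adjusted p = 0.000762) in CL. The pooled treated level was 115 (95% counting interval 49.2 to 355) times that of RT in COLD and 102 (95% counting interval 43.5 to 316) times in CL, where the intervals cover counting error only. Car3, carbonic anhydrase 3, an abundant adipocyte protein, was at 8.74 and 54.8 CPM at RT, 560.3 and 645 in COLD and 366 and 792 in CL and rose by 4.63 ± 0.75 (adjusted p = 0.00555) and 4.73 ± 0.75 (adjusted p = 0.0175). Adig, the adipogenin gene, was at 0.708 and 0.417 CPM at RT, 11.5 and 5.45 in COLD and 44.8 and 8.04 in CL. It rose by 3.64 ± 1.02 (adjusted p = 0.0456) and 5.27 ± 0.96 (adjusted p = 0.0308), from 6.95 RT counts. Cfd, which encodes the complement protein adipsin, was at 5.8 and 2.59 CPM at RT, 12.3 and 6.897 in COLD and 53.8 and 19.04 in CL, rose in CL by 2.92 ± 0.54 (adjusted p = 0.0324) and did not pass in COLD (0.95 ± 0.55, adjusted p = 0.286). Retn, the resistin gene, did not pass in either.

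**Figure D2:**
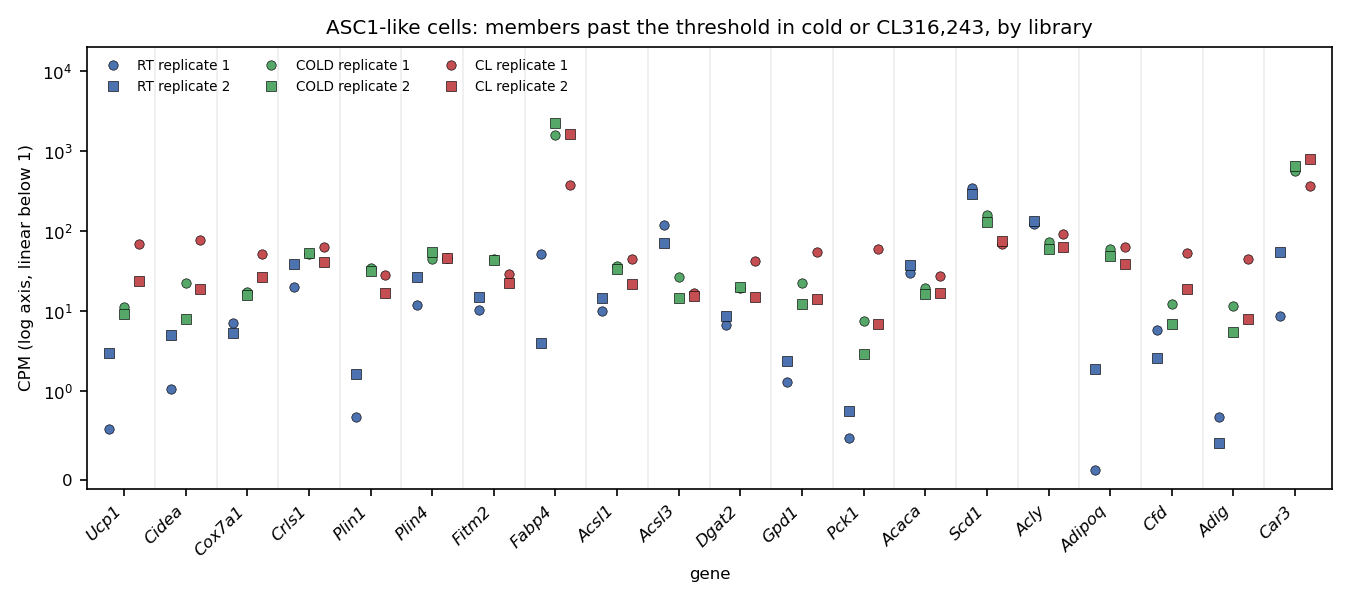
CPM of the 20 genes past the threshold in ASC1-like cells, 1 point per C57 library (circles replicate 1, squares replicate 2), on an axis that is logarithmic above 1 and linear below. Adipoq and Plin1 lie at 0.117 to 1.9 CPM in RT and at 16.99 to 63.2 CPM in COLD and CL, whereas Acsl3, Acaca, Scd1 and Acly are highest in RT.

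The remaining members did not pass in ASC1-like cells. Over the 6 libraries Lipe ranged over 16.2 to 37.8 CPM, Pnpla2 over 23.3 to 49.6, Dgat1, the other enzyme of the last step of triglyceride synthesis, over 21.3 to 35.95, Cox8b, a brown fat and muscle subunit of cytochrome c oxidase, over 13 to 40.8, Acacb over 1.88 to 10.47 and Pank1, which starts coenzyme A synthesis, over 4.39 to 14.9. Elovl3, a cold-induced elongase of brown fat (0 to 23.8), Plin5 (0.474 to 13.2) and Retn (0.708 to 39.1) were each highest in CL replicate 1. Cpt1b, the muscle type carnitine palmitoyltransferase, was at or below 0.133 CPM. Other markers moved beside these genes. The 5 erythroid markers summed to 3.41 to 7.59 CPM in RT, 51.7 to 75.04 in COLD and 7.07 to 462 in CL. The 8 VEC markers, all detected, summed to 28.5 to 53.8, 34.7 to 57.3 and 30.8 to 137 CPM. The 10 markers of differentiating adipocytes that are not members summed to 4477 to 5154, 5919 to 6187 and 3849 to 4300.1 CPM, with 9 of 10 detected at RT and all 10 in the treated libraries. Their part in the result was not tested.

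The replicate numbers mark experiments, and a fit with the replicate number as a block called more members in ASC1-like cells, 24 in COLD, where 19.2% of all genes passed, and 23 in CL, where 4.19% did. Without the filter on low counts 27 passed in COLD (14.4% of all genes) and 27 in CL (5.4%). The calls made without the block were kept. Those added in COLD were Cidea (adjusted p = 0.00631 with the block), Elovl3 (0.00352), Pck1 (0.00793), Cidec (0.0156), Cfd (0.0180) and Fabp3 (0.0335), all higher than RT, and Fasn (0.00196) and Elovl6 (0.0302), both lower. Those added in CL were Cidec (adjusted p = 0.00365 with the block), Elovl3 (0.00463), Cox8b (0.00624), Retn (0.0258) and Plin5 (0.0363), all higher, and Elovl6 (0.0237), lower.

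The counts of called members depended on single libraries. The share of all genes is not given for the fits without 1 library. Their counts are read only as a measure of that dependence. In COLD, 16 members passed with all libraries and 8 to 10 when any 1 library was left out, namely 8 without RT replicate 1, and 10 without each of RT replicate 2, COLD replicate 1 and COLD replicate 2. In CL, 17 passed, against 8 without RT replicate 1, 7 without RT replicate 2, 11 without CL replicate 1, 24 without CL replicate 2 and 9 without the barcodes that the CL replicate 2 libraries share. Leaving out the cells with a corrected Adipoq count of at least 0.5 left 12 members past the threshold in COLD and 14 in CL. Cells with a smaller corrected Adipoq count stayed in. Among these members were Ucp1 (3.00 in COLD and 5.13 in CL on the log2 scale), Car3 (3.52 and 3.45), Plin1 (4.45 and 3.597) and Plin4 (1.60 and 1.58). The share of all genes is not given for this fit either. Its counts are read only as a measure of how far the calls depend on the cells left out. Fitm2, Car3, Plin1 and Adipoq in COLD and Ucp1 and Adipoq in CL passed in every alternative that was run for them, which for Adipoq leave out the alternative without the cells that hold it.

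In ASC2-like cells none of the 34 members tested passed, in COLD or in CL, with edgeR, against 0.802% and 0.0921% of all genes. At an unadjusted p under 0.05 there were 16 in COLD and 19 in CL, and DESeq2 called 5 and 9. Here and below, counts at an unadjusted p and by DESeq2 are given without the share of all genes. They are not read as results about the members. With the replicate block 12 members rose in COLD, where 2.35% of all genes passed, and 15 in CL, where 1.01% did. Without the filter on low counts 18 passed in COLD (2.62% of all genes) and 21 in CL (1.69%), so that the count depends on both settings. With the block Ucp1, Adipoq, Cfd, Cidea, Cox8b, Plin1, Gpd1, Fabp3, Adig, Pck1 and Elovl3 were among them in both treatments. Ucp1 stood at 0.238 and 1.96 CPM at RT, 50.5 and 16.6 in COLD and 107 and 21.3 in CL, without overlap between RT and treated libraries, and its log2 fold change was 5.42 ± 1.20 (adjusted p = 0.0933) in COLD and 6.37 ± 1.12 (adjusted p = 0.111) in CL, and with the block the adjusted p was 0.000348 and 6.88e-05. Adipoq was at 0 and 1.55 CPM at RT, 38.5 and 8.03 in COLD and 46.4 and 8.65 in CL, and Cfd at 3.89 and 3.43 CPM at RT, 18.3 and 13.5 in COLD and 66.1 and 21.6 in CL. Car3 overlapped in both treatments, at 4.12 and 9.32 CPM at RT, 139.9 and 5.17 in COLD and 41.1 and 9.18 in CL, and Fabp4 overlapped in CL, at 72.2 and 7.703 CPM at RT, 164 and 88.8 in COLD and 223 and 20.99 in CL. With the 8 libraries of both mouse lines in 1 fit, 8 of 25 members tested passed in COLD: Ucp1, Cidea, Cox8b, Cox7a1, Adipoq, Plin4, Gpd1 and Fitm2. The share of all genes in that fit is not given, so the count is not read as a result about the members. The count in CL depended on CL replicate 2.

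ASC3-like cells gave 27 testable members, of which only Ucp1 passed in each treatment with the filter on low counts, against 0.499% of all genes in COLD and 0.0744% in CL. With the replicate block 3 passed in COLD (0.892% of all genes), Fabp3 and Cidea besides Ucp1, and 5 in CL (0.181%), where Cidea, Cox7a1, Cfd and Gpd1 were added. Dropping that filter gave 10 in COLD (1.12% of all genes) and 13 in CL (0.51%). Ucp1 was at 0 and 2.21 CPM at RT, 36.2 and 21.3 in COLD and 74.3 and 26.01 in CL, without overlap, and the log2 fold change was 4.61 ± 0.80 (adjusted p = 0.0136) and 5.32 ± 0.75 (adjusted p = 0.0103). The RT libraries held only 1.73 corrected Ucp1 counts. The ratio of the pooled levels was 25.4 (95% counting interval 6.73 to 215) in COLD and 31.8 (95% counting interval 8.61 to 266) in CL. Adipoq was at 1.599 and 2.26 CPM at RT, 22.04 and 8.36 in COLD and 45.4 and 7.13 in CL and Car3 at 0.752 and 41.9 CPM at RT, 68.3 and 6.42 in COLD and 33.1 and 19.2 in CL in these cells. The members other than Fabp4 and Car3 summed to 909.8 and 967 CPM at RT, 931 and 759 in COLD and 1382 and 696 in CL in ASC1-like cells. The sums were 465 and 533 CPM at RT, 931 and 484 in COLD and 1503 and 511 in CL in ASC2-like cells, and 305 and 426 at RT, 719.8 and 465 in COLD and 1323 and 459 in CL in ASC3-like cells.

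VEC-like cells are not known to make Ucp1, Adipoq or Car3, and they come from the same droplet suspensions as the stromal cells. They held 8 of 8 endothelial markers. None of 34 members passed with edgeR in COLD (0.257% of all genes did) or in CL (0% of all genes), with 9 and 22 at an unadjusted p under 0.05, and with 0 and 2 called by DESeq2. With the replicate block Me1 (adjusted p = 0.0381) and Elovl3 (0.0424) rose in COLD, where 0.524% of all genes passed, and none passed in CL. Without the filter on low counts, however, 12 members passed in COLD (2.45% of all genes) and 20 in CL (1.14%). Ucp1 was at 27.9 and 80.3 CPM at RT, 214 and 144 in COLD and 379.5 and 86.02 in CL, which is above the ASC1-like level in all 6 libraries. Its log2 fold change was 1.88 ± 0.59 (adjusted p = 0.293) in COLD and 2.38 ± 0.59 (adjusted p = 0.4702) in CL. Adipoq was at 14.7 and 15.6 CPM at RT, 44.97 and 23.4 in COLD and 87.1 and 9.8 in CL and Car3 at 184 and 222 CPM at RT, 141 and 22.9 in COLD and 249.9 and 93.9 in CL, with the RT and CL libraries overlapping for both genes. Fabp4, a known gene of capillary endothelium, was at 41055 and 68419.5 CPM at RT, 54884 and 50361 in COLD and 45827 and 36112 in CL, more than in any other named class at RT, although the correction for cell-free RNA had taken it as a gene that cells lack. The count in CL depended on CL replicate 2.

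Immune and mural-like cells of the Lin- libraries, which shared the suspension with the ASC1-like cells, also held these transcripts. In the Lin- immune cells, 173 to 547 per library, Adipoq was at 0 and 0 CPM at RT, 62.9 and 36.95 in COLD and 96.9 and 11.8 in CL, and Ucp1 at 0 and 1.496 CPM at RT, 43.2 and 34 in COLD and 266 and 44.7 in CL. Their treated levels of Adipoq were above those of ASC1-like cells in COLD replicate 1 and CL replicate 1 and below them in COLD replicate 2 and CL replicate 2, and their Ucp1 level was above that of ASC1-like cells in all 4 treated libraries. Car3 in these immune cells was at 17.8 and 7.55 CPM at RT, 460.0 and 178 in COLD and 450.3 and 51.4 in CL, and Fabp4 at 875 and 350.1 CPM at RT, 2238 and 959 in COLD and 5601 and 584 in CL. In mural-like cells Adipoq was at 0.708 and 3.98 CPM at RT, 33.98 and 20.1 in COLD and 96.8 and 12.1 in CL, Ucp1 at 0.707 and 8.12 CPM at RT, 64.5 and 48.3 in COLD and 232 and 45.02 in CL and Car3 at 7.69 and 5.49 CPM at RT, 219.7 and 155 in COLD and 431 and 37.5 in CL. In both classes the treated libraries were above RT for Adipoq and Ucp1. No test was run on these cells.

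The response of ASC1-like cells was then set against that of VEC-like cells of the same libraries, by a test of the difference itself. In COLD the log2 change was higher in ASC1-like cells for 10 of 35 members and lower for 6, against 6.3% of all genes in either direction. In CL the change was higher for 11 and lower for 3, against 0.743%. Adipoq differed by 5.62 ± 0.91 (adjusted p = 0.00450) in COLD and 4.88 ± 0.93 (adjusted p = 0.0335) in CL. Its level in ASC1-like cells was below that of VEC-like cells in both RT libraries and in CL replicate 1, and above it in both COLD libraries and CL replicate 2. Car3 differed by 6.48 ± 1.01 (adjusted p = 0.00365) and 4.96 ± 0.98 (adjusted p = 0.0381). Fabp4 differed by 6.70 ± 1.72 (adjusted p = 0.0402) in COLD and did not pass in CL (5.83 ± 1.75, adjusted p = 0.224). Acsl1 differed by 2.26 ± 0.27 (adjusted p = 0.000734) and 1.69 ± 0.28 (adjusted p = 0.0172), with VEC-like levels of 54.9 and 76.2 CPM at RT, 47.6 and 34.03 in COLD and 86.5 and 25.8 in CL. Cfd differed by 2.40 ± 0.29 (adjusted p = 0.000697) and 2.68 ± 0.27 (adjusted p = 0.000673), with VEC-like levels of 101 and 68.2 CPM at RT, 44.2 and 24.98 in COLD and 167 and 50.6 in CL.

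Of the thermogenic and mitochondrial genes, Cidea differed in both treatments and Ucp1 in CL. Ucp1 did not differ past the threshold in COLD (1.08 ± 0.44, adjusted p = 0.178) and differed in CL by 2.93 ± 0.40 (adjusted p = 0.00586). Cidea differed by 1.68 ± 0.34 (adjusted p = 0.0141) and 2.33 ± 0.33 (adjusted p = 0.00620), with VEC-like levels of 20.1 and 86.4 CPM at RT, 129.6 and 48.5 in COLD and 320.2 and 53.5 in CL. Gpd1 differed by 1.52 ± 0.39 (adjusted p = 0.0391) and 2.62 ± 0.39 (adjusted p = 0.00789), with VEC-like levels of 18.1 and 35.2 CPM at RT, 92.9 and 75.8 in COLD and 134 and 26.5 in CL. Adig differed by 2.73 ± 0.58 (adjusted p = 0.0180) and 3.23 ± 0.56 (adjusted p = 0.0217), and Pck1 in CL by 3.46 ± 0.60 (adjusted p = 0.0208).

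Cidec, a protein that fuses lipid droplets, was at 0.355 and 1.23 CPM at RT, 6.32 and 2.43 in COLD and 33.3 and 4.68 in CL in ASC1-like cells and at 16.4 and 25.5 CPM at RT, 34.4 and 13.2 in COLD and 72.8 and 12.3 in CL in VEC-like cells, and the difference was 2.57 ± 0.51 (adjusted p = 0.0129) in COLD and 3.82 ± 0.47 (adjusted p = 0.00314) in CL. Fabp3, the heart type fatty acid binding protein, was at 0.816 and 4.26 CPM at RT, 17.3 and 7.77 in COLD and 37.3 and 2.71 in CL in ASC1-like and at 30.1 and 73.02 CPM at RT, 138 and 50.8 in COLD and 81.5 and 7.07 in CL in VEC-like cells. Its difference was 1.81 ± 0.34 (adjusted p = 0.0110) and 3.50 ± 0.35 (adjusted p = 0.000673). RT and treated libraries of ASC1-like cells did not overlap for Cidec and overlapped for Fabp3, through CL replicate 2.

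Of the 7 genes of de novo lipogenesis, 5 had a lower change in ASC1-like than in VEC-like cells in COLD and 3 in CL, and Acly and Acacb passed in neither. Fasn was at 63.2 and 62.3 CPM at RT, 34.4 and 22.3 in COLD and 57.8 and 26.2 in CL in ASC1-like cells, where all treated libraries were below RT, and at 15.3 and 8.68 CPM at RT, 40.5 and 34.6 in COLD and 105 and 50.04 in CL in VEC-like cells, where all treated libraries were above RT. The difference was -2.68 ± 0.27 (adjusted p = 0.000423) in COLD and -3.14 ± 0.26 (adjusted p = 0.000213) in CL. Elovl6 was at 42.2 and 42.6 CPM at RT, 28.01 and 21.04 in COLD and 27.5 and 11.3 in CL in ASC1-like and 4.19 and 4.37 CPM at RT, 22.9 and 12.7 in COLD and 30.8 and 10.6 in CL in VEC-like cells, and differed by -2.74 ± 0.38 (adjusted p = 0.00178) and -3.36 ± 0.37 (adjusted p = 0.00165). Scd1 was at 34.7 and 47.1 CPM at RT, 81.4 and 48.8 in COLD and 192 and 101 in CL in VEC-like cells and differed by -1.76 ± 0.39 (adjusted p = 0.0215) and -3.95 ± 0.39 (adjusted p = 0.000673). Me1, the malic enzyme that supplies NADPH, was at 26.6 and 45.5 CPM at RT, 34.6 and 26.4 in COLD and 34.3 and 24.9 in CL in ASC1-like and 8.78 and 8.698 CPM at RT, 38.7 and 26.7 in COLD and 29.3 and 15.5 in CL in VEC-like cells, and differed in COLD by -1.94 ± 0.31 (adjusted p = 0.00429). Acaca and Acsl3 also differed in COLD, by -1.20 ± 0.32 (adjusted p = 0.0458) and -1.78 ± 0.43 (adjusted p = 0.0328). Leaving out any 1 library took the count in COLD from 16 to between 5 and 10, and that in CL from 14 to between 4 (without RT replicate 1) and 18 (without CL replicate 2), and Cfd, Acsl1 and Fasn in COLD and Fabp3, Fasn and Scd1 in CL passed in every alternative.

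**Figure D3:**
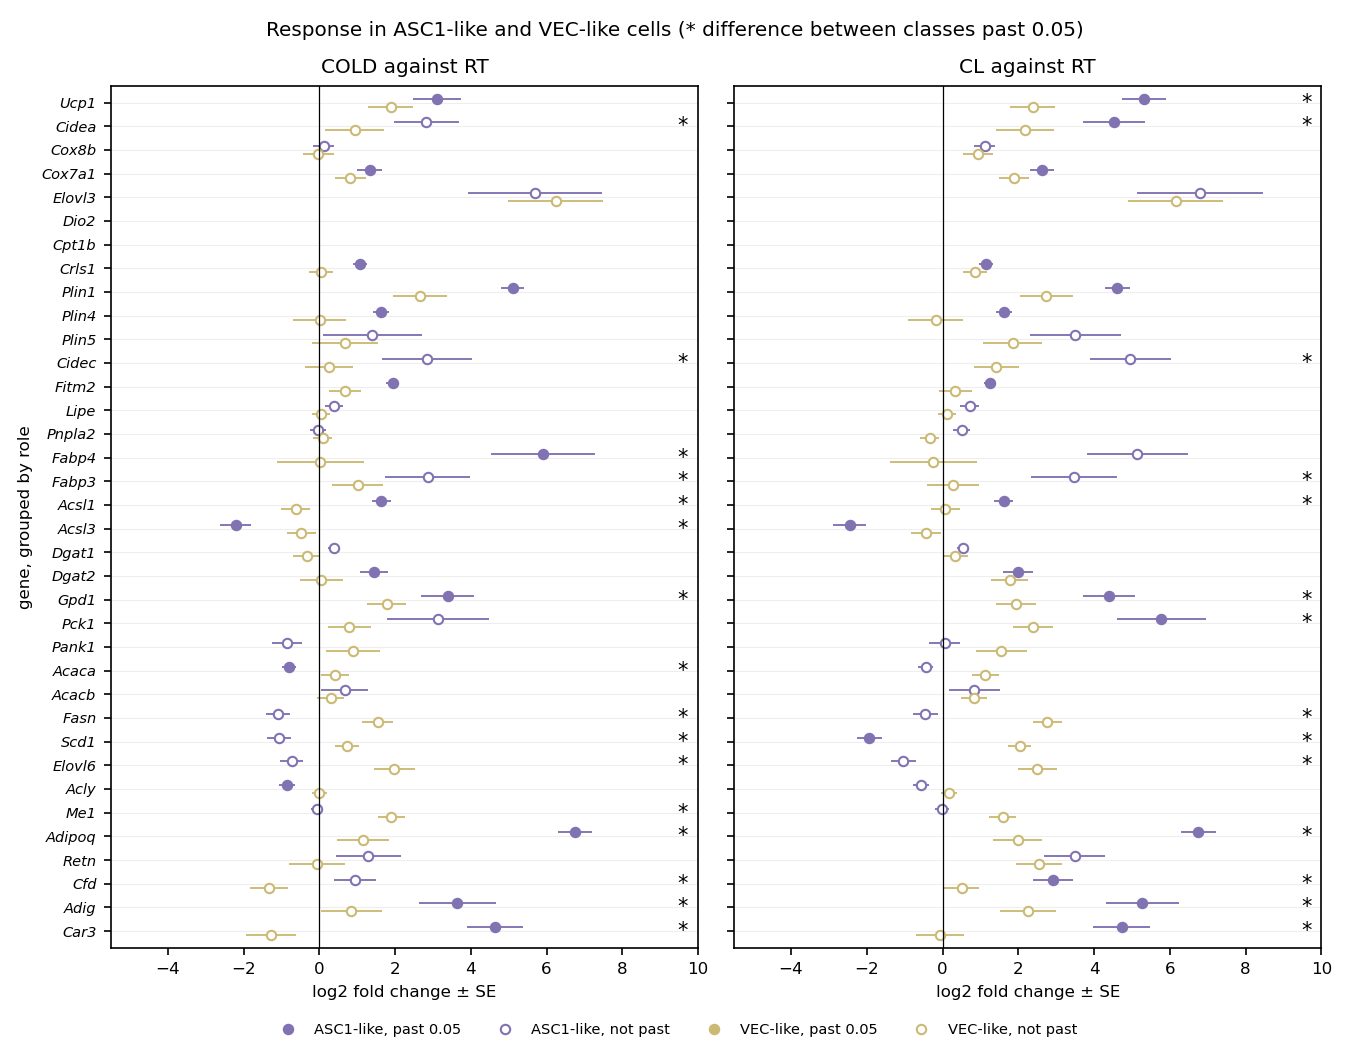
log2 fold change ± SE of each gene in ASC1-like (purple) and VEC-like (tan) cells, COLD against RT on the left and CL against RT on the right; filled points pass an adjusted p of 0.05, and asterisks mark genes whose difference between the classes passes it. Adipoq, Car3 and Acsl1 lie further right in ASC1-like cells, and Fasn, Scd1 and Elovl6 lie right of 0 in VEC-like and left of it in ASC1-like cells.

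In the immune fraction 31 members could be tested in myeloid-like cells. In COLD 2 rose and 4 fell, a share not above that of all genes, of which 24.5% passed, 12% upward and 12.5% downward. The class was made up of other cells in COLD than at RT. Cluster 8, led by Lilra5, Pla2g2d and Vcam1, held 31.96% and 39.8% of it at RT and 0.534% and 0.784% in COLD. Cluster 0 held 4.07% and 4.39% at RT and 32.9% and 7.05% in COLD, and cluster 16 at most 0.244% at RT and 0.744% and 28.2% in COLD, both led by Gpnmb and Syngr1 among others. The part of this make-up in the changes was not tested. Fabp4, which macrophages can also make, was at 106 and 70.8 CPM at RT, 279.5 and 253 in COLD and 187 and 102 in CL, and the log2 fold change in COLD was 1.52 ± 0.27 (adjusted p = 0.00849), with the COLD libraries above all others. Fabp3 was at 2.29 and 2.15 CPM at RT, 21.5 and 17.1 in COLD and 23.2 and 5.21 in CL and rose in COLD by 3.06 ± 0.61 (adjusted p = 0.0125). Acsl3, at 24.9 and 13.8 CPM at RT, 8.84 and 4.32 in COLD and 11.7 and 8.76 in CL, had a log2 fold change of -1.61 ± 0.38 (adjusted p = 0.0216), and Fasn, at 22.1 and 10.9 CPM at RT, 7.28 and 6.46 in COLD and 18.1 and 8.49 in CL, of -1.33 ± 0.38 (adjusted p = 0.0369). Elovl6 (8.25 and 6.72 CPM at RT, 3.99 and 3.38 in COLD and 5.65 and 5.52 in CL) and Acly (60.8 and 54.7 CPM at RT, 36.5 and 41.1 in COLD and 58.4 and 48.4 in CL) fell as well, with -1.08 ± 0.25 (adjusted p = 0.0199) and -0.64 ± 0.15 (adjusted p = 0.0207). Fabp4 alone passed in every alternative. With the replicate block 11 passed in COLD, where 29.4% of all genes did, with Ucp1 and Gpd1 added as higher and Dgat2, Acsl1 and Scd1 as lower. There were 13 without the filter on low counts, where 21.8% of all genes did.

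In the Lin+ myeloid-like cells Ucp1 was at 1.797 and 1.56 CPM at RT, 6.12 and 4.23 in COLD and 30.6 and 7.42 in CL, the value of CL replicate 1 being above the ASC1-like levels of COLD, and Adipoq was at 1.21 and 0.572 CPM at RT, 1.12 and 0.943 in COLD and 6.55 and 1.48 in CL. In CL no member passed in myeloid-like cells (0.986% of all genes did, 16 members at an unadjusted p under 0.05, 7 by DESeq2), and the count depended on CL replicate 2. With the replicate block 6 passed (3.33% of all genes), namely Ucp1, Cidea, Car3, Gpd1, Fabp3 and Adig, all higher. In CL 20 members passed without the filter on low counts (9.21% of all genes). In lymphoid-like cells none of 22 passed in COLD (0.798% of all genes, 4 members unadjusted) or in CL (0.00986%, 9 members unadjusted), and the count in CL depended on CL replicate 2. DESeq2 called 1 and 6 lymphoid members, and the replicate block gave 5 in CL (0.197% of all genes), Ucp1, Cidea, Cox8b, Car3 and Cfd, and none in COLD. Without the filter on low counts 6 lymphoid members passed in COLD (5.04% of all genes) and 14 in CL (0.985%).

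The share of cells with an Adipoq count asks which cells carry the transcript rather than how much of it. Each cell was thinned to 1000 UMIs from corrected values rounded to whole counts, and shallower cells were left out. In the stromal lineage of C57 mice the share was 0 of 3170 cells in RT replicate 1, which allows up to 0.0946%, and 0.468% (0.2496 to 0.799) in RT replicate 2, with 95% exact binomial intervals in parentheses. It was 16.4% (15.5 to 17.3) and 5.49% (4.85 to 6.19) in COLD, and 19.9% (18.6 to 21.2) and 2.201% (1.798 to 2.67) in CL. Every treated library was above both RT libraries. COLD averaged 10.9% ± 7.72 (SD, n = 2) and RT 0.234% ± 0.331, a difference of 10.7 percentage points with a two-sided exact permutation p of 0.333, the smallest that 2 libraries against 2 allow. CL averaged 11.04% ± 12.5, a difference of 10.8 points with the same exact p of 0.333, and 10.4 points without the shared barcodes. The difference was 5.25 points in COLD without COLD replicate 1 and 1.97 points in CL without CL replicate 1. With the Adrb1 line added, 4 COLD libraries exceeded 4 RT libraries by 6.36 points (exact permutation p = 0.0286, the smallest that 4 against 4 allow). That test exchanges libraries between lines that differ in sex. The RT libraries of the Adrb1 line also came from another kit version than all other libraries. With libraries exchanged only within a line, WT with KO among them, the exact permutation p was 0.0556, the smallest that this allows. The difference was 3.195 points with a gate of 2 counts (exact permutation p = 0.0571) and 3.06 points without COLD replicate 1. Without thinning the shares were 0.119% and 0.629% in RT, 21.6% and 9.502% in COLD, and 22.6% and 5.25% in CL.

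VEC-like cells, which are not known to make Adipoq, were set beside these: 0.853% (0.369 to 1.67) and 2.06% (0.894 to 4.02) in RT, 2.94% (1.75 to 4.61) and 2.19% (1.14 to 3.801) in COLD, and 10.8% (9.14 to 12.8) and 1.55% (0.320 to 4.45) in CL. The source of their Adipoq counts was not tested. The stromal share exceeded the VEC-like share beyond counting error in both COLD libraries and in CL replicate 1, but not in CL replicate 2. ASC1-like cells were at 2.44% (1.94 to 3.03) and 2.02% (1.52 to 2.64) in COLD and at 4.83% (3.896 to 5.91) and 1.48% (0.961 to 2.18) in CL, at or below VEC-like cells of the same library, although their Adipoq level in CPM was above that of VEC-like cells in both COLD libraries and CL replicate 2. Cycling stromal cells were far above the VEC-like share, at 32.4% (29.3 to 35.6) and 12.9% (9.64 to 16.7) in COLD and 38.1% (31.02 to 45.6) and 27.6% (12.7 to 47.2) in CL. Differentiating adipocyte-like cells lay at 62.4% to 80.5% in these 4 libraries, a class named from other adipocyte genes. Myeloid-like cells were at most at 0.731% and lymphoid-like cells at most at 1.82%, both in CL replicate 1. Median depth before thinning was 3262 and 5323 UMIs in ASC1-like cells of COLD, 6299 and 8427 in cycling and 1071 and 1925 in VEC-like cells. The shares left out 86 and 713 VEC-like cells of RT, 474 and 89 of COLD, and 999 and 40 of CL as too shallow.

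**Figure D4:**
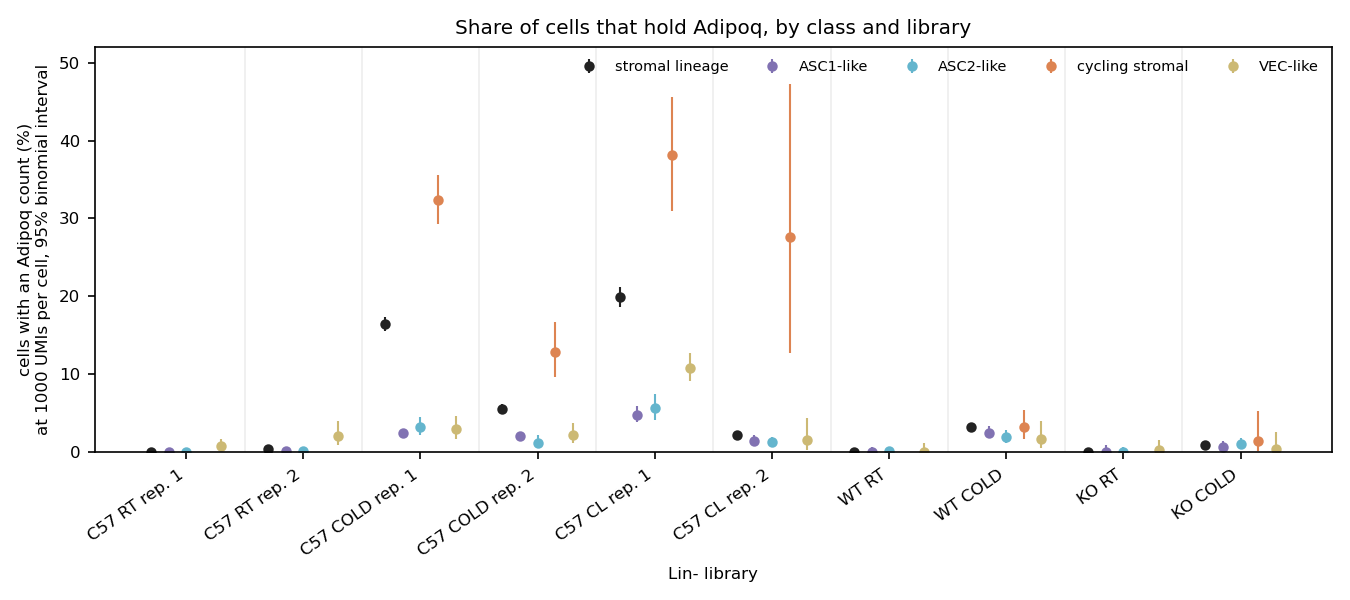
Percentage of cells with an Adipoq count after thinning to 1000 UMIs, by Lin- library (x axis) and class (colours), with the whole stromal lineage in black, with 95% exact binomial intervals as bars; classes with under 20 cells are not drawn. Cycling stromal cells of the C57 COLD and CL libraries sit between 12.9% and 38.1%, and ASC1-like cells sit between 1.48% and 4.83% there, each below VEC-like cells of the same library.

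In cycling stromal cells 4 members were read against differentiating cells. Their Adipoq level was 964 and 358 CPM in COLD and 1149.9 and 579 in CL, below the 1646 and 1697 CPM in COLD and 2461 and 2272 in CL of differentiating cells in every library. Car3 was at 8999 and 3946 CPM in COLD and 11678 and 8564 in CL, against 16043 and 16241 CPM in COLD and 18926 and 18188 in CL in differentiating cells. Gpd1 was at 342 and 140.1 CPM in COLD and 469 and 119.6 in CL, against 692 and 703 CPM in COLD and 1116 and 861 in CL in differentiating cells. Ucp1 was at 32.5 and 39.9 CPM in COLD and 231 and 11.6 in CL, against 404 and 546 CPM in COLD and 1588 and 815 in CL in differentiating cells, so that its gap between the classes was wider than that of Adipoq in each library. The Ucp1 level of cycling cells in COLD was below the 214 and 144 CPM of VEC-like cells and near the 43.2 and 34 CPM of Lin- immune cells. RT had too few cycling cells for a comparison, and no test was run between these classes.

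Differentiating adipocyte-like cells varied among libraries. Plin1 was at 347 and 419.6 CPM in COLD and 535 and 518 in CL and Fitm2 at 119 and 106 CPM in COLD and 143 and 92.6 in CL. Crls1 was at 102 and 121 CPM in COLD and 183 and 123 in CL and Fabp4 at 22325 and 27414 CPM in COLD and 23430.0 and 26282 in CL, so these 4 genes differed by less than 2 times among the 4 libraries. Cfd was at 74.5 and 549 CPM in COLD and 8504 and 672 in CL, Scd1 at 109 and 856 CPM in COLD and 4863 and 771 in CL, and Fasn at 57.8 and 215 CPM in COLD and 702 and 271 in CL, with the highest value of each in CL replicate 1. Dio2 was at 10.4 and 5.19 CPM in COLD and 61.8 and 9.595 in CL. The 13 such cells of RT replicate 2 stood apart. Their Cfd was 68724 CPM, Scd1 49585, Retn 11099 and Fasn 9676, while Ucp1 was 204 and Cidea 1963 CPM.

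The class consisted of cluster 13 with 1891 cells and cluster 30 with 319. In COLD replicate 2 the 43 cells of cluster 13 held Cfd at 3425 CPM, Scd1 at 4876 and Fasn at 1076, and the 181 cells of cluster 30 held Cfd at 47.3, Scd1 at 154 and Fasn at 64.9 CPM. In COLD replicate 1, with 1018 and 8 cells, cluster 13 held Cfd at 75.2, Scd1 at 109 and Fasn at 57.5 CPM and cluster 30 held them at 0, 96.02 and 94.9 CPM, so the gap was absent there for Scd1 and turned for Fasn. In CL replicate 1, with 803 and 15 cells, Cfd was at 8687 and 1209 CPM in cluster 13 and cluster 30 and Scd1 at 4947 and 1485, and in CL replicate 2, with 13 and 45 cells, Cfd was at 3261 and 78.9 and Scd1 at 3014 and 257. The members had been left out of the genes used for clustering. No test was run between these clusters.

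Stromal-lineage cells that held Adipoq after correction numbered 4 and 22 at RT, 1511 and 471 in COLD and 1011 and 259 in CL. Of all Lin- cells with Adipoq in COLD, 46.6% were differentiating adipocyte-like, 21.5% cycling, 14.98% ASC1-like and 4.14% VEC-like. In CL 32.2% were differentiating, 19.4% belonged to the unnamed cluster of low depth and 12.6% were VEC-like, and at RT 48.8% were VEC-like. Between COLD and CL, none of the 34 other members tested differed among the stromal cells with Adipoq, where 0% of 11084 genes passed with edgeR and 4 members had an unadjusted p under 0.05. Ucp1 was at 257 and 227 CPM in COLD and 1195 and 239.9 in CL, a log2 difference (COLD minus CL) of -1.56 ± 0.68 (adjusted p = 0.514). Cfd was at 61.1 and 287 CPM in COLD and 6517 and 220.4 in CL (-4.21 ± 1.59, adjusted p = 0.484), and Dio2 at 7.41 and 2.42 CPM in COLD and 45.5 and 3.11 in CL (-2.28 ± 0.99, adjusted p = 0.511). The CL libraries lay far apart. The count depended on CL replicate 2, and DESeq2 called 0 with all libraries. With low counts left in, 15 passed with all libraries, all lower in COLD, where 4.16% of all genes did.

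Stromal cells below the gate of 0.5 corrected Adipoq counts still held other members. Ucp1 in them was at 0.421 and 2.51 CPM in RT, 31.2 and 26.9 in COLD and 122 and 26.3 in CL. Car3 was at 7.07 and 43.9 CPM at RT, 435 and 246 in COLD and 355 and 129 in CL, and Fabp4 at 64.9 and 5.79 CPM at RT, 1200.2 and 1302 in COLD and 639 and 460.1 in CL. In every COLD and CL library these levels were under those of the stromal cells with Adipoq. Not all members were so. Mean Fabp3 was 17.9 CPM below the gate and 6.96 in the cells with Adipoq in COLD, and 36.3 and 15.8 in CL. Mean Elovl3 was 8.42 CPM below the gate and 3.66 in the cells with Adipoq in COLD.

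The correction left a trace of what it removed. UMI counts are whole before it, so the amount by which a deposited value falls short of the next whole number is the part subtracted, and between 99.9% and 100% of the entries read this way fell within 10% of 1 profile per library. At least 8.99% and 35.6% of a Lin- cell's RNA had been subtracted at RT, 22.04% and 25.3% in COLD and 19.7% and 13.8% in CL, as medians over cells. The removed profile rested on 4 and 4 Adipoq and 11 and 6 Ucp1 counts of empty droplets at RT, on 193 and 148 Adipoq and 331 and 218 Ucp1 counts in COLD, and on 132 and 94 Adipoq and 496 and 285 Ucp1 counts in CL. Both genes were many times more frequent in the removed profiles of COLD and CL than in those of RT.

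The ratio of a member to Adipoq was set beside that of the removed RNA, as a description only. Ucp1 per Adipoq was 1.72 and 1.47 in the removed RNA of COLD, 4.77 and 6.18 in VEC-like and 1.31 and 2.07 in ASC2-like cells. It was lower in ASC1-like (0.187 and 0.1903), cycling (0.0337 and 0.111) and differentiating cells (0.245 and 0.322). In CL the ratio was 3.76 and 3.03 in the removed RNA, 2.32 and 2.46 in ASC2-like, 1.09 and 0.605 in ASC1-like, 0.201 and 0.0201 in cycling and 0.645 and 0.359 in differentiating cells. By Ucp1 per Adipoq alone, the ASC1-like ratio of these 4 libraries was nearer to that of differentiating cells. The ASC2-like ratio was nearer to that of the removed RNA, which did not hold for Car3 per Adipoq in CL (below). Classes not known to make Adipoq did not share 1 value. Lin- immune cells were at 0.688 and 0.9201 in COLD and 2.74 in CL replicate 1, mural-like cells at 1.897 and 2.41 in COLD and 2.397 and 3.73 in CL, and VEC-like cells at 4.36 in CL replicate 1. The ratio was read only from at least 10 Adipoq counts, which the immune and VEC-like cells of CL replicate 2 did not have, with 5.76 and 5.47 counts.

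By Car3 per Adipoq, ASC2-like cells lay below the ASC1-like, cycling and differentiating cells, which overlapped. The ratio was 9.36 and 13.3 in ASC1-like cells of COLD, 9.34 and 11.01 in cycling, 9.75 and 9.57 in differentiating, and 3.64 and 0.643 in ASC2-like cells. In CL it was 5.79 and 20.3 in ASC1-like, 10.2 and 14.8 in cycling, 7.69 and 8.004 in differentiating and 0.887 and 1.06 in ASC2-like cells. The removed RNA gave 7.83 and 10.9 in CL, so that by this ratio ASC2-like cells were not near it. Car3 per Adipoq is not given in the text for VEC-like, Lin- immune and mural-like cells. The distance from the removed RNA is therefore not read as particular to ASC2-like cells. Cidea per Adipoq was 0.372 and 0.163 in ASC1-like and 0.0123 and 0.0186 in cycling cells of COLD, 0.04803 and 0.0399 in differentiating cells and 0.803 and 0.514 in the removed RNA, so that the ASC1-like ratio lay between those of differentiating cells and the removed RNA. These ratios are descriptions with no test, and the part of cell-free RNA in any class was not tested beyond them. Fabp4 and Car3 themselves had been used to set the amount removed.

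**Figure D5:**
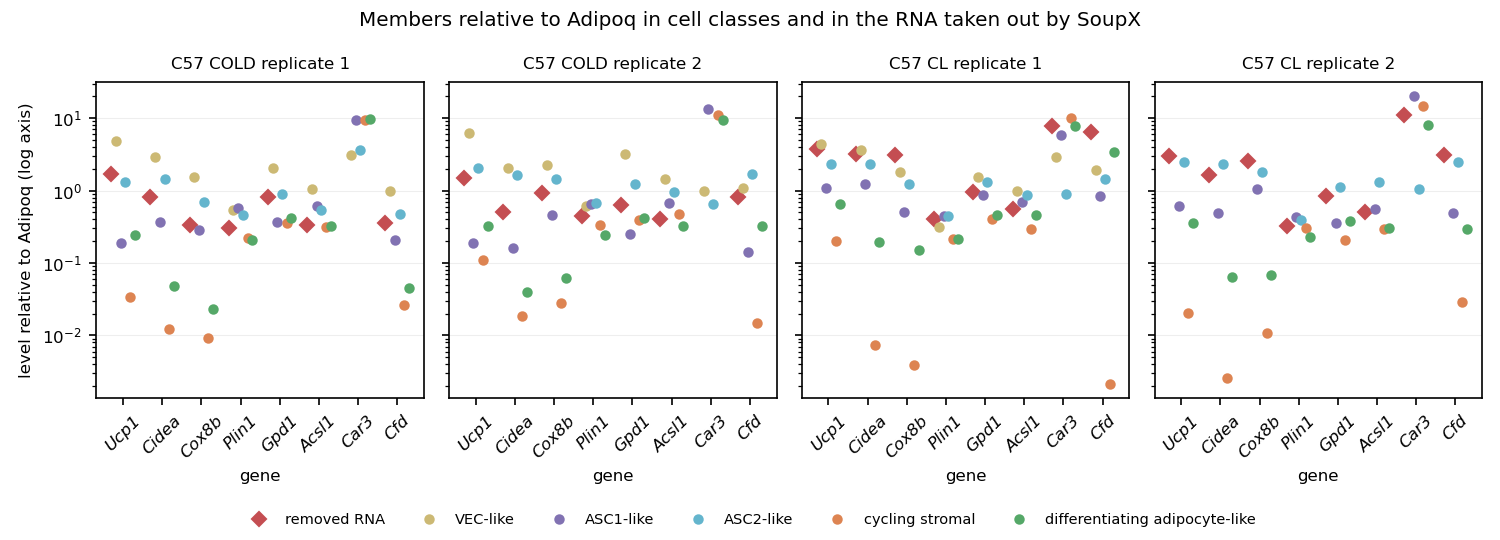
Level of 8 members relative to Adipoq (log axis) in the C57 COLD and CL libraries, 1 panel per library, genes along the x axis; red diamonds are the RNA that the correction removed and circles are cell classes. For Ucp1 and Cidea the cycling stromal points lie lowest, and the VEC-like points lie at or above the diamonds where both are drawn.

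In the Lin+ fraction 28 to 50 stromal cells per treated C57 library remained, apart from CL replicate 2 with 1130, of which 1019 carried barcodes shared with its Lin- library. Over all 1098 shared barcodes the median was 601 UMIs in the Lin+ and 6687 in the Lin- library. Adipoq in the Lin+ stromal cells was at 0 and 0 CPM at RT, 657 and 0 in COLD and 2087 and 201 in CL, and Ucp1 at 0 and 0 CPM at RT, 1363 and 81.04 in COLD and 2012 and 53.7 in CL. The 36 to 412 Lin+ VEC-like cells per C57 library held Ucp1 at 31.4 and 21.4 CPM at RT, 239 and 89.6 in COLD and 124 and 12.4 in CL, and Fabp4 at 45177 and 36700.4 CPM at RT, 44878 and 46949 in COLD and 50879.5 and 29014 in CL, so the endothelial Fabp4 level was found in both fractions.

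In the Adrb1 line each group was 1 library, no test was run between its genotypes, and intervals cover counting error only. Adrb1, the deleted gene, came first. In ASC1-like cells its level was 6.82 CPM (14 counts) in WT RT and 4.20 (55 counts) in WT COLD, and 0.574 (1 count) in KO RT and 0.490 (4 counts) in KO COLD, lower in both libraries labelled KO. Ucp1 in these cells was at 0.487 (0.0123 to 2.71) CPM in WT RT, 5.77 (4.57 to 7.27) in WT COLD, 1.13 (0.139 to 4.15) in KO RT and 3.05 (1.98 to 4.53) in KO COLD. Adipoq was at 0 CPM in WT RT, which allows up to 1.46 CPM, 32.2 (29.2 to 35.5) in WT COLD, 0.572 (0.0145 to 3.197) in KO RT and 10.4 (8.33 to 12.9) in KO COLD. In the cold, 25 of the 36 members were lower in KO than in WT ASC1-like cells, against 56.8% of the 18516 genes with a count in either library. The intervals were apart for 6 that were lower in KO (Ucp1, Adipoq, Car3, Gpd1, Adig and Retn) and for 3 that were higher (Cox8b, Plin4 and Scd1), against 6.16% and 4.09% of all genes. In VEC-like cells the same 6 members were also lower in KO COLD, with overlapping intervals: Ucp1 was at 66.3 (50.05 to 86.03) CPM in WT COLD and 42.9 (28.9 to 61.9) in KO COLD, and Adipoq at 23.2 (14.5 to 36.5) and 5.34 (1.62 to 15.2). Gpd1 was at 44.4 and 25.8 CPM and Retn at 9.07 and 1.46 CPM there, so that lower values in KO were found in more than the stromal classes. In ASC2-like cells 29 were lower, against 55.6% of all genes, with the intervals apart for Ucp1, Cidea, Adipoq and Fabp4, all lower in KO, where 2.66% of all genes were apart and lower and 1.83% apart and higher. Car3 stood at 213 (205 to 221) CPM in WT COLD and 91.8 (85.3 to 98.5) in KO COLD ASC1-like cells, and Fabp4 at 2073 (2049 to 2098) and 2055 (2024 to 2086).

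The share of stromal-lineage cells with Adipoq was 0.0603% (0.00730 to 0.218) in WT RT, 3.17% (2.67 to 3.74) in WT COLD, 0 of 1399 in KO RT, which allows up to 0.214%, and 0.919% (0.5898 to 1.36) in KO COLD. Differentiating adipocyte-like cells numbered 61 in WT COLD and 8 in KO COLD, out of 4770 and 2867 stromal-lineage cells. Cycling cells numbered 429 and 143, and only 3.21% (1.72 to 5.43) and 1.48% (0.1799 to 5.25) of them held Adipoq, against 12.9% and 32.4% in the C57 cold libraries. VEC-like cells of these libraries were at 1.75% (0.570 to 4.03) and 0.472% (0.0119 to 2.6).

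Other genes of the pathway were read from 3 lists of 20. Of the lipid handling list 18 could be tested in ASC1-like cells, and 4 rose and 1 fell in each treatment, where 14.2% of all genes passed in COLD and 2.09% in CL, with a median log2 fold change of 0.39 in COLD and 0.22 in CL. Cd36, the fatty acid translocase, was at 13.5 and 5.11 CPM in RT, 71.2 and 70.6 in COLD and 98.1 and 97.9 in CL and rose by 2.73 ± 0.41 (adjusted p = 0.00388) and 3.31 ± 0.41 (adjusted p = 0.00652). Thrsp, a lipogenic regulator, was at 1.66 and 5.11 CPM in RT, 15.99 and 6.66 in COLD and 39.9 and 20.3 in CL and rose by 2.12 ± 0.53 (adjusted p = 0.0301) and 3.61 ± 0.51 (adjusted p = 0.0109). Slc27a1, a fatty acid transporter, rose in COLD by 1.16 ± 0.16 (adjusted p = 0.00329), and the elongase Elovl5 fell in CL, at -0.97 ± 0.17 (adjusted p = 0.0264). Of 19 genes of mitochondrial oxidation 3 rose in COLD and 1 in CL, none fell, and the medians were 0.37 and 0.31, so that its share called in COLD was near that of all genes. Cpt2, the inner carnitine palmitoyltransferase, was at 16.7 and 34.1 CPM in RT, 46.8 and 47.4 in COLD and 51.9 and 34.8 in CL and rose by 1.13 ± 0.19 (adjusted p = 0.00605) and 1.09 ± 0.19 (adjusted p = 0.0264), and Acads and Etfdh rose in COLD.

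Of 15 testable genes of brown adipocyte identity 4 rose in COLD and 2 in CL, where 14.2% and 2.09% of all genes passed, with medians of 0.69 and 0.76. Slc36a2, an amino acid transporter of brown fat, was at 0.356 and 0.426 CPM in RT, 15.7 and 11.6 in COLD and 14.8 and 2.94 in CL and rose by 5.11 ± 0.82 (adjusted p = 0.00547) and 4.44 ± 0.89 (adjusted p = 0.0424). Adrb3, the receptor that CL316,243 binds, was at 0.119 and 0.426 CPM in RT, 6.704 and 6.14 in COLD and 4.86 and 1.601 in CL and rose by 4.96 ± 0.70 (adjusted p = 0.00317) and 3.94 ± 0.80 (adjusted p = 0.0440). The folds of Slc36a2 and Adrb3 rest on RT levels near 0. The study states that brown adipocytes express Adrb3 and ASCs do not. Levels of both genes in other classes are not given here, and the source of these counts was not tested. Cebpa, a driver of adipogenesis, was at 39.5 and 46.4 CPM in RT, 82.5 and 89.8 in COLD and 85.1 and 57.1 in CL and rose in COLD by 1.11 ± 0.20 (adjusted p = 0.00840). In ASC2-like cells no gene of the 3 lists passed, in ASC3-like cells 1 of lipid handling rose in each treatment (0.499% and 0.0744% of all genes passed), and in VEC-like cells 1 of identity rose in COLD (0.257%).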

How the data were processed

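Droplet single-cell RNA-seq (10x Chromium 3′) was measured in the Lin- and Lin+ stromal vascular cells of 10 pools of mice. The authors counted UMIs with Cell Ranger 3.0.1 on build mm10 and subtracted cell-free RNA with SoupX, taking Fabp4 and Car3 as genes that cells do not express, so the deposited values are estimated counts (expected counts) and mostly not whole. The subtraction can lower either gene, and any gene abundant in the suspension, in every class.

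Cells over 10% mitochondrial counts or 15000 UMIs, Lin+ cells over 4000 genes and Lin- cells under 100 genes were left out. The members and the pathway lists were left out of the genes used for clustering (scanpy 1.11.5, leidenalg 0.10.2, 2000 variable genes, 30 components, resolution 1), and clusters were named from marker lists. No doublets were removed. Leaving out the 6% of cells with the top Scrublet scores was an alternative. Counts were summed per class and library with at least 20 cells, rounded, and tested over all genes with edgeR 4.0.16 (R 4.3.3; TMM, filterByExpr, quasi-likelihood test, two-sided, Benjamini-Hochberg adjusted p over all genes tested, threshold 0.05) over the 6 C57 libraries of the fraction, with treatment as the only term, and with library as a block for the difference between classes. DESeq2 1.42.0 was an alternative. In data simulated for COLD against RT in ASC1-like cells, 83.8% of genes with a log2 change of 2 and 36.7% of those with a change of 1 were called, among 12436 genes. These were 83 and 36 genes, and 16 unchanged genes were called beside them, a larger part of the calls than the threshold of 0.05 is meant to allow. CPM, binomial and counting intervals are 95% exact and cover counting error only. A cell held Adipoq at a corrected count of at least 0.5. A count of 0 is given the limit of 3 counts in shares and in CPM.

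The members and the lists were chosen with earlier results of these data known. Values by library are given for each member past the threshold in any class and contrast of C57 mice and for Ucp1, Adipoq, Car3, Fabp4, Cfd and Dio2, other members by range, and at most 3 called genes of a pathway list by the largest change in ASC1-like cells. Libraries are pools of separate mice. Replicates of a group differed by more than sampling noise. Fewer cells of a kind within a class and less RNA per cell cannot be told apart in sums over a class. The study's methods merged C57 libraries of the same replicate experiment, so the replicate numbers pair the treatments. Deviations of same-numbered libraries from their group means correlated over all Lin- cells at 0.21 between RT and COLD, 0.0054 between RT and CL and 0.53 between COLD and CL, and over Lin+ cells at 0.38, 0.19 and 0.43. A fit with this block stands beside each class. In the Adipoq-carrying stromal cells, COLD against CL, none of 34 members passed with it. Other alternatives were no filter on low counts, only cells below the gate of 0.5 Adipoq counts, all 8 libraries of both lines, and leaving out each library.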

Additional observations from a re-analysis of the deposited data

Results flagged for a closer look

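The response to COLD differed between ASC1-like and VEC-like cells of the same libraries, by edgeR's test of the interaction term, for 16 members. The difference of the log2 fold changes (ASC1-like minus VEC-like) was Cidea 1.68, Adipoq 5.62, Car3 6.48, Cidec 2.57, Gpd1 1.52, Fabp4 6.70, Fabp3 1.81, Acsl1 2.26, Adig 2.73, Cfd 2.40, and it was negative for Acsl3 -1.78, Acaca -1.20, Fasn -2.68, Scd1 -1.76, Elovl6 -2.74, Me1 -1.94. For CL it was Ucp1 2.93, Cidea 2.33, Adipoq 4.88, Car3 4.96, Cidec 3.82, Gpd1 2.62, Fabp3 3.50, Acsl1 1.69, Adig 3.23, Pck1 3.46, Cfd 2.68, and negative for Fasn -3.14, Scd1 -3.95, Elovl6 -3.36. Cidea, Adipoq, Car3, Cidec, Gpd1, Fabp3, Acsl1, Adig and Cfd were higher and Fasn, Scd1 and Elovl6 lower in both contrasts, which share their RT libraries. These are differences on the log2 scale and not of levels. The levels of Ucp1, Cidea, Cidec, Gpd1, Fabp3, Acsl1 and Cfd were higher in VEC-like than in ASC1-like cells in every C57 library. Mean Ucp1 in VEC-like cells was 54.1 CPM at RT and 233 in CL.

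A library far from the others of its group was found in 2 of the 9 groups examined, both of 4 libraries, where chance alone flags about 1 in 20. Both were RT replicate 2 of the C57 mice, whose share of cells with an Adipoq count was 0.468% in the stromal lineage, with the next RT library at 0.0603%, and 0.145% in ASC1-like cells, where the other 3 RT libraries were at 0. The second value rests on 2 of 1380 cells, and with the others at 0 any cell with a count would have set its library apart, so this flag carries no weight. It is the library in which 72.01% of barcodes exceeded the mitochondrial limit and from which at least 35.6% of a cell's RNA had been subtracted as a median. The part of these values in the shares was not tested.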

How the results depend on the processing

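Of the counts of called members and the differences in the Adipoq share, 89 values stayed within 1.5 times of the reported count or on the same side of the threshold. A further 69 moved and 11 weakened. A count has no direction, and no difference in the share reversed. Of the values of single called members 478 stayed past the threshold, 145 no longer passed and none reversed. Without the filter on low counts edgeR gave 27 (from 16) in ASC1-like cells, 18 (from 0) in ASC2-like cells, 10 (from 1) in ASC3-like cells, 12 (from 0) in VEC-like cells, 13 (from 6) in myeloid-like cells, 6 (from 0) in lymphoid-like cells for COLD, and 27 (from 17) in ASC1-like cells, 21 (from 0) in ASC2-like cells, 13 (from 1) in ASC3-like cells, 20 (from 0) in VEC-like cells, 20 (from 0) in myeloid-like cells, 14 (from 0) in lymphoid-like cells for CL. DESeq2 gave 5 (from 0) in ASC2-like cells, 1 (from 0) in lymphoid-like cells for COLD, and 9 (from 0) in ASC2-like cells, 3 (from 1) in ASC3-like cells, 2 (from 0) in VEC-like cells, 7 (from 0) in myeloid-like cells, 6 (from 0) in lymphoid-like cells for CL. A fit with the replicate number as a block gave 12 (from 0) in ASC2-like cells, 3 (from 1) in ASC3-like cells, 2 (from 0) in VEC-like cells, 11 (from 6) in myeloid-like cells for COLD, and 15 (from 0) in ASC2-like cells, 5 (from 1) in ASC3-like cells, 6 (from 0) in myeloid-like cells, 5 (from 0) in lymphoid-like cells for CL. In ASC1-like cells the block gave 24 (from 16) for COLD and 23 (from 17) for CL. Adding the Adrb1 line, with line as a term, gave 8 (from 0) in ASC2-like cells, 3 (from 1) in ASC3-like cells, 3 (from 0) in VEC-like cells, 10 (from 6) in myeloid-like cells, 3 (from 0) in lymphoid-like cells for COLD. Leaving out the 6% of cells with the top doublet scores gave 1 (from 0) in VEC-like cells for COLD, and 1 (from 0) in ASC2-like cells, 2 (from 1) in ASC3-like cells for CL. Leaving out cells that hold Adipoq gave 1 (from 0) in VEC-like cells for COLD, and 1 (from 0) in ASC2-like cells, 2 (from 1) in ASC3-like cells for CL. Leaving out the barcodes shared by the CL replicate 2 libraries, an alternative chosen after seeing the data, gave 9 (from 17) in ASC1-like cells, 1 (from 0) in ASC2-like cells for CL. Leaving out each library in turn gave 8 to 10 for ASC1-like cells in COLD, 7 to 24 for ASC1-like cells in CL, 0 to 13 for ASC2-like cells in CL, 1 to 2 for ASC3-like cells in COLD, 0 to 7 for ASC3-like cells in CL, 0 to 12 for VEC-like cells in CL, 1 to 5 for myeloid-like cells in COLD, 0 to 20 for myeloid-like cells in CL, 0 to 1 for lymphoid-like cells in COLD, 0 to 12 for lymphoid-like cells in CL, 5 to 10 for the difference between ASC1-like and VEC-like cells in COLD, 4 to 18 for the difference between ASC1-like and VEC-like cells in CL, 0 to 22 for Adipoq-carrying stromal cells (COLD against CL). The lone library left in a group was assumed to vary like the other groups. For the alternatives other than the filter on low counts and the replicate block, the share of all genes is not given. Their counts show only how far the calls depend on the setting. In Adipoq-carrying stromal cells the count of 0 became 15 without the filter. The difference in the Adipoq share over 4 COLD and 4 RT libraries (6.36 percentage points) was 3.195 with a gate of 2 counts, 2.02 in the Adrb1 line alone and unchanged with labels permuted within the mouse line (both chosen after seeing the data), 3.06 to 8.22 without 1 C57 library or KO COLD, 7.47 without WT COLD, 6.34 without WT RT, 6.32 without KO RT and 6.701 without C57 COLD replicate 2, and it then did not pass the exact permutation test, whose smallest p is 0.0571 with 1 library left out, 0.333 in the Adrb1 line alone and 0.0556 within lines, so that only the gate of 2 counts could have passed (exact permutation p = 0.0571). The replicate block lost none of the calls made without it, and the counts it moved are given in the report beside each class. The causes of these changes were not tested. Few RT counts limit the size of the fold changes of Adipoq, Ucp1, Adig, Pck1, Slc36a2 and Adrb3, and few cells limit the levels of differentiating cells in CL replicate 2 and the Adrb1 line.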

Other observations

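The unnamed cluster of low depth, which matched no marker list, consisted of 3325 cells in CL replicate 1 at a median of 557 counts, and of 30 to 161 cells in the other C57 libraries. Its Ucp1 level was 83.4 and 56.1 CPM at RT, 475 and 301 in COLD and 1198 and 257 in CL. Cidea was at 47.7 and 61.4 CPM at RT, 212 and 158 in COLD and 1009.8 and 92.2 in CL, and Cox8b at 35.7 and 126 CPM at RT, 140.1 and 151 in COLD and 698 and 265 in CL. Fabp4 was at 30502 and 41771 CPM at RT, 47109 and 50452 in COLD and 48616 and 26965 in CL, near the level of VEC-like cells. In CL replicate 1 this cluster held 26.8% of all Ucp1 counts and 37.9% of all Cidea counts of the Lin- library. A second unnamed cluster, led by Cthrc1 and with 1662 cells in CL replicate 1, held Ucp1 at 23.2 CPM and Adipoq at 17.9 CPM there.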
